A study of Mus musculus with 18 samples.

Results

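Bglap, Bglap2, Alpl, Ibsp, Sp7, Runx2, Dmp1, Phex, Mepe and Spp1 are genes of bone-forming cells and osteocytes, taken by symbol as 10 of the 18585 genes measured in mouse forepaws. All 10 passed the filter on low values (at least 10 normalized counts in at least 4 libraries), as did 13809 of the 18585 genes. The mice, all C57BL/6, fell into 4 groups: Sema3b-/- with arthritis (5 libraries), wild type (WT) with arthritis (5 libraries), Sema3b-/- control (4 libraries) and WT control (4 libraries). Sema3b encodes a secreted class 3 semaphorin, a signalling protein first known from axon guidance. The labels name no tissue or time limit to the loss of the gene, and give neither the arthritis model, nor what the controls received, nor the age of the mice. RNA was taken from the forepaw, which holds bone, marrow, cartilage, synovium, muscle and skin together.

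Osteoblasts secrete the collagen-rich matrix of bone and mineralize it, and those that become embedded in it turn into osteocytes. Runx2 and Sp7 are the transcription factors that commit precursor cells to this lineage, alkaline phosphatase (Alpl) frees phosphate for mineral, and osteocalcin (Bglap, Bglap2) marks mature osteoblasts. Dmp1, Ibsp, Mepe and Spp1 encode acidic glycoproteins of the mineralized matrix, and Dmp1, Mepe and the endopeptidase Phex are typical of osteocytes. Several of these genes are also active elsewhere: Spp1 in macrophages and osteoclasts, Ibsp in hypertrophic chondrocytes and Alpl in neutrophils.

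CEL-seq, which reads each RNA from a tag near its 3' end, gave 1732783 to 19464892 reads per library (median 7279063.5). Total reads were 5468160 to 10083213 in Sema3b-/- arthritis, 6251174 to 19464892 in WT arthritis, 1732783 to 12816207 in Sema3b-/- control and 6086700 to 8179726 in WT control. Sema3b itself was at 0 to 3.49 normalized counts in Sema3b-/- arthritis and 0 to 7.20 in Sema3b-/- control, against 23.7 to 66.7 in WT arthritis and 44.2 to 67.5 in WT control. Control titles share an opening word that is absent from arthritis titles, so any difference in preparation that this marks and arthritis cannot be told apart. By Xist and the Y-linked genes, male libraries numbered 1 of 5 in Sema3b-/- arthritis, 4 of 5 in WT arthritis, 2 of 4 in Sema3b-/- control and 0 of 4 in WT control, so sex is unevenly spread over the groups. In WT mice sex and arthritis largely coincide. Beside sex, 3 libraries stood apart: Sema3b-/- control replicate 1 in depth, WT arthritis replicate 1 in mitochondrial share (39.4% of its normalized counts) and WT arthritis replicate 3 in its low share of muscle and epidermis genes. The lowest muscle and epidermis shares were 0.0942% and 0.0465% in WT arthritis. They were nearly as low in Sema3b-/- arthritis, 0.108% and 0.0532%, of which no library was counted among the 3.

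Arthritic forepaws had less RNA of 7 of these 10 genes when both genotypes were averaged, and the osteocalcin gene Bglap fell in both genotypes. In Sema3b-/- mice, Bglap, Bglap2, Alpl, Phex and Sp7 fell with arthritis, by 12.2-fold for Bglap and 2.97-fold for Sp7. In WT mice Bglap alone passed the test, 5.65-fold lower in arthritis. That WT call was close to the threshold and was lost with sex as a term (adjusted p = 0.0529). The glycoprotein genes Ibsp and Spp1 passed it in neither genotype. Limma on log2(normalized count + 1) across all genes tested, with a Benjamini-Hochberg adjusted p under 0.05 as the threshold, called 5 of 10 genes in Sema3b-/- mice, where 12.4% of all genes were called and 5.55% were called lower. It called 1 of 10 in WT mice, where 4.21% of all genes were called and 1.58% were called lower. With the arthritis effects of both genotypes averaged it called 7 of 10, all lower, where 23.5% of all genes were called and 10.9% were called lower. In bulk tissue, fewer bone-forming cells and less RNA of these genes per cell cannot be told apart.

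**Figure D1:**
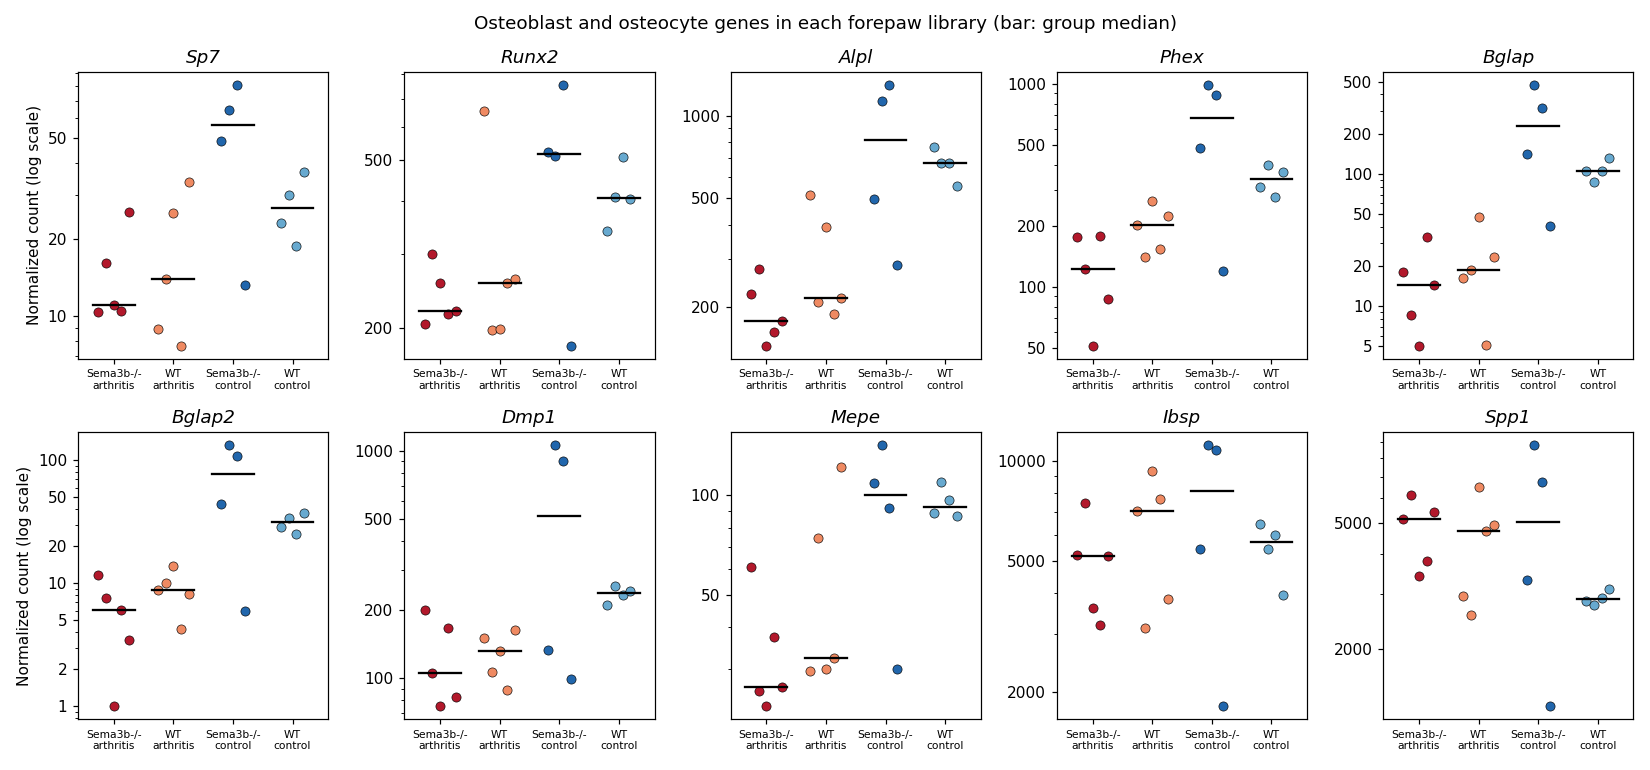
Normalized counts (log scale) of the 10 genes in each of the 18 forepaw libraries, grouped as Sema3b-/- arthritis, WT arthritis, Sema3b-/- control and WT control; each point is a library and each bar a group median. Bglap lies between 5.03 and 33.1 in Sema3b-/- arthritis, below all 4 Sema3b-/- controls, while the Ibsp and Spp1 points of arthritis and control overlap in Sema3b-/- mice.

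In mm10 the osteocalcin genes lie side by side on the minus strand of chromosome 3, Bglap at chr3:88383501-88384464 (4 exons) and Bglap2 at chr3:88377736-88378699 (4 exons). Bglap3, another copy at chr3:88368616-88372743, completes a cluster of 15.8 kb. Dmp1 (chr5:104202613-104214102, 6 exons), Ibsp (chr5:104299171-104311469, 7 exons), Mepe (chr5:104325329-104338611, 3 exons) and Spp1 (chr5:104435118-104441050, 7 exons) form another cluster, of 238.4 kb on the plus strand of chromosome 5. The remaining genes stand alone, Alpl at chr4:137741733-137796384 (12 exons), Sp7 at chr15:102356606-102367182 (2 exons), Runx2 at chr17:44495987-44814797 (9 exons) and Phex at chrX:157162075-157415312 (22 exons), all on the minus strand. Exons are those of the principal transcript.

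The bases just before the start of Bglap, which fell in both genotypes, are shown beside those of Ibsp and Spp1, neighbours on chromosome 5 that passed the test in neither. Sequences are from RefSeq on GRCm38.p6 (mm10), read 5' to 3' on the strand of the gene: chr3:88384467-88384716 (minus strand) for Bglap, chr5:104299037-104299170 (plus strand) for Ibsp and chr5:104434861-104435110 (plus strand) for Spp1. The Bglap and Spp1 stretches end at the RefSeq start, while that of Ibsp is shorter and ends before the start of Ibsp in the mm10 annotation, which lies upstream of its RefSeq start. Capitals mark ACCACA, a core that Runx proteins bind.
Bglap: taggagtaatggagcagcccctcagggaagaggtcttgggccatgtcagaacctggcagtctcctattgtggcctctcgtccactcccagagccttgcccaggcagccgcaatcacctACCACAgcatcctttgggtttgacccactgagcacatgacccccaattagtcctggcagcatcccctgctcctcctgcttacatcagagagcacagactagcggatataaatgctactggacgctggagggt
Ibsp: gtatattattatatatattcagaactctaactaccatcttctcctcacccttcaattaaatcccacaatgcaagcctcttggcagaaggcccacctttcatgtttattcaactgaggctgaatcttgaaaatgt
Spp1: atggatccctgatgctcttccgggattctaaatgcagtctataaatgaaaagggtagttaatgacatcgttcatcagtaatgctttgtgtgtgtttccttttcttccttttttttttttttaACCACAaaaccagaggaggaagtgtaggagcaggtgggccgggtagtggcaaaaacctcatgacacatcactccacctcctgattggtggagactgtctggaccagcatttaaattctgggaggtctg
Bglap has the motif 132 bases before its start and Spp1 128 bases before its start. Over promoters of 300 bases (250 before and 50 after a RefSeq start) and both strands, ACCACA was found in 5 of the 11 promoters of the 8 genes that could be matched, against 16.8% of all 32851 promoters. These 5 promoters, 1 a gene, belong to Bglap, Runx2, Dmp1, Mepe and Spp1. Alpl, Ibsp and Phex had no such letters in this window, and Bglap2 and Sp7 were not matched.

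Of the transcription factors, Sp7 (osterix), which acts downstream of Runx2, was sparsely read. Its normalized counts were 10.4, 16.1, 11.1, 10.5 and 25.7 in Sema3b-/- arthritis and 48.6, 64.3, 80.7 and 13.2 in Sema3b-/- control. Arthritis replicates 2 and 5 lay above the lowest control, replicate 4, so the groups overlapped, while the other 3 controls lay above every arthritis library. The log2 fold change was -1.57 (SE 0.50, adjusted p = 0.0485), at the edge of the threshold, and the call was lost in 12 of 18 fits that each left out 1 library. In WT mice, Sp7 was at 8.87, 14.0, 25.3, 7.65 and 33.6 in arthritis and 23.2, 29.8, 18.8 and 36.7 in control, and the ranges again overlapped. The log2 fold change there was -0.74 (SE 0.50, adjusted p = 0.404).

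Runx2, the first factor of the lineage, passed the test in no comparison of the main limma fit. It was at 203, 299, 255, 215 and 219 normalized counts in Sema3b-/- arthritis and 522, 512, 755 and 181 in Sema3b-/- control. All Sema3b-/- controls except replicate 4 lay above every arthritis library. For Runx2 the change was -0.89 on the log2 scale (SE 0.36, adjusted p = 0.116). In WT mice it was at 655, 198, 199, 255 and 261 in arthritis and 339, 409, 508 and 404 in control. Here 4 of the 5 arthritis libraries lay below all controls and replicate 1 lay above them. The WT log2 fold change was -0.55 (SE 0.36, adjusted p = 0.387), and averaged over genotypes it was -0.72 (SE 0.26, adjusted p = 0.0503). DESeq2 called Runx2 lower in Sema3b-/- mice (-1.05, adjusted p = 0.0348) and averaged over genotypes (adjusted p = 0.025). Limma gave both calls without Sema3b-/- control replicate 4. It also gave the averaged call with library totals (adjusted p = 0.038) and without the 3 libraries that stood apart (adjusted p = 0.0293).

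Of the enzymes, Alpl separated arthritis from control in both genotypes. It was at 223, 276, 145, 163 and 178 normalized counts in Sema3b-/- arthritis and 498, 1134, 1295 and 285 in Sema3b-/- control. The highest arthritis library, at 276, was below the lowest control, at 285. The log2 fold change was -1.81 (SE 0.39, adjusted p = 0.00804), 3.52-fold lower. In WT mice Alpl was at 513, 209.8, 392, 189.7 and 216 in arthritis and 767, 672, 675 and 552 in control, with no overlap. The WT log2 fold change was -1.24 (SE 0.39), and its adjusted p of 0.0821 missed the threshold.

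Phex, whose loss causes a phosphate-wasting rickets, fell in Sema3b-/- mice. It was at 176, 122, 51.3, 179 and 87.5 normalized counts in Sema3b-/- arthritis and 486, 988, 877 and 119.9 in Sema3b-/- control. Control replicate 4 lay within the arthritis range and the other controls above it. The arthritis level was 4.22-fold lower, -2.08 on the log2 scale (SE 0.50, adjusted p = 0.015). In WT mice Phex was at 203, 140.4, 266, 154 and 224 in arthritis and 311, 397, 279 and 370.0 in control. The WT groups did not overlap, and the log2 fold change was -0.80 (SE 0.50, adjusted p = 0.367).

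Bglap, the principal osteocalcin gene, had the largest estimate of the 10 genes in both genotypes. It was at 18.1, 8.53, 5.03, 33.1 and 14.6 normalized counts in Sema3b-/- arthritis, and at 142, 472, 317 and 40.8 in Sema3b-/- control. All arthritis libraries were below all controls, of which replicate 4 was the nearest. Its log2 fold change was -3.60 (SE 0.66, 95% confidence interval -4.99 to -2.22, adjusted p = 0.00308). In WT mice Bglap was at 16.3, 18.8, 47.1, 5.10 and 23.5 in arthritis and 106, 86.6, 105 and 131 in control. These groups did not overlap either, and the log2 fold change was -2.50 (SE 0.66, 95% confidence interval -3.88 to -1.12, adjusted p = 0.0411). In reads, Bglap had 5 to 38 per library in Sema3b-/- arthritis and 6 to 43 in WT arthritis, against 34 to 845 in Sema3b-/- control and 96 to 154 in WT control.

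The WT call for Bglap was close to the threshold. With sex as a term its log2 fold change was -3.30 and its adjusted p 0.0529, and without the 3 libraries that stood apart it was -2.90 with an adjusted p of 0.0529. In those 2 fits the WT count of called genes was 0 with sex as a term and 1 without the 3 libraries, when the called gene was Alpl (log2 fold change -1.69, adjusted p = 0.0351).

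Bglap2, the neighbouring osteocalcin gene, also fell in Sema3b-/- mice. It was at 11.7, 7.58, 1.01, 6.10 and 3.47 normalized counts in Sema3b-/- arthritis and 44.5, 133, 109 and 6.00 in Sema3b-/- control. Replicate 4 of the controls lay among the arthritis libraries and the other 3 above them. Its log2 fold change was -2.99 (SE 0.69, adjusted p = 0.0107). In WT mice it was at 8.87, 10.03, 13.8, 4.25 and 8.24 in arthritis and 28.7, 34.3, 25.3 and 37.5 in control. The WT groups did not overlap, and the log2 fold change was -1.75 (SE 0.69, adjusted p = 0.153). With limma on the 2 WT groups alone Bglap2 was called (adjusted p = 0.0397), as it was with DESeq2 (adjusted p = 0.0437).

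The division of reads between these copies is uncertain. The last 300 bases of the Bglap and Bglap2 transcripts are identical at 299 of 300 positions, and Bglap and Bglap3 at 96.7%, so a 3' tag may have been counted for another copy. The sum of Bglap and Bglap2 does not depend on the division between these 2 genes. It was 6.03 to 39.2 normalized counts in Sema3b-/- arthritis against 46.8 to 605 in Sema3b-/- control, and 9.36 to 60.9 in WT arthritis against 121 to 169 in WT control, with no overlap in either genotype. Bglap3, at 4.25 to 32.4 normalized counts over all libraries, gave a log2 fold change of 0.06 in Sema3b-/- mice (adjusted p = 0.955) and -0.54 in WT mice (adjusted p = 0.554).

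**Figure D2:**
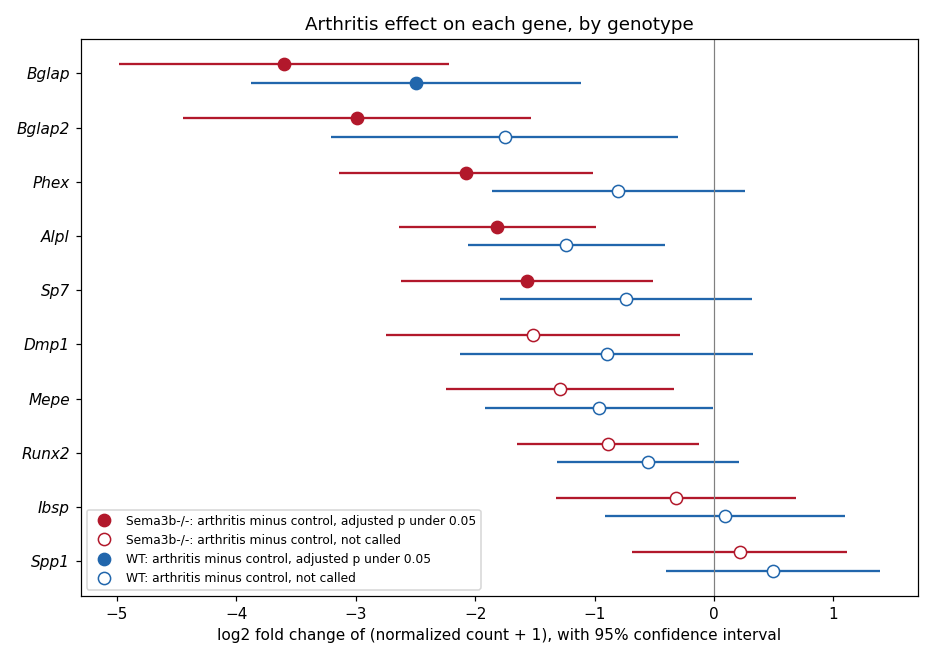
Log2 fold change of normalized count + 1, arthritis minus control, for the 10 genes in Sema3b-/- (red) and WT (blue) forepaws, with 95% confidence intervals; filled points passed an adjusted p of 0.05. Estimates run from -3.60 for Bglap to 0.21 for Spp1 in Sema3b-/- mice, and the intervals of the 2 genotypes overlap for every gene.

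Among the matrix glycoproteins, Dmp1, which regulates mineral growth and osteocyte phosphate signalling, was at 199.5, 105, 75.4, 166 and 82.7 normalized counts in Sema3b-/- arthritis. In Sema3b-/- control it was at 134, 1058, 902 and 99.5. The controls were split, with replicates 2 and 3 far above every arthritis library and replicates 1 and 4 within their range. The log2 fold change was -1.52 (SE 0.58, adjusted p = 0.0961). In WT mice Dmp1 was at 151, 106, 131, 88.5 and 163 in arthritis and 209, 254, 233 and 241 in control. These groups did not overlap, although the change of -0.90 on the log2 scale (SE 0.58, adjusted p = 0.38) did not pass the test. The fit shares 1 spread over all groups, and Dmp1 had an SD of 503 in Sema3b-/- control against 18.9 in WT control. With limma on the 2 WT groups alone Dmp1 was called (adjusted p = 0.044), while DESeq2 did not call it there (adjusted p = 0.306). Averaged over genotypes, Dmp1 fell by 1.21 on the log2 scale (SE 0.41, adjusted p = 0.0429), a call that was lost in 13 of 18 fits that each left out 1 library.

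Mepe, a phosphoglycoprotein of osteocytes, was at 60.9, 25.6, 23.1, 37.5 and 26.4 normalized counts in Sema3b-/- arthritis and 109, 142, 91.4 and 30.0 in Sema3b-/- control. Only control replicate 4 lay within the arthritis range. For Mepe the change was -1.29 on the log2 scale (SE 0.45, adjusted p = 0.0693). In WT mice Mepe was at 29.6, 74.1, 29.9, 32.3 and 122 in arthritis and 88.4, 110.1, 96.6 and 87.0 in control, where arthritis replicate 5 lay above all controls. The WT log2 fold change was -0.96 (SE 0.45, adjusted p = 0.231), and the averaged one, -1.13 (SE 0.32, adjusted p = 0.0176), passed. Without the 3 libraries that stood apart, averaged Mepe had an adjusted p of 0.0994.

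Ibsp (bone sialoprotein), an early nucleator of mineral, did not follow the osteocalcins. It was at 5209, 7473, 3606, 3191 and 5153 normalized counts in Sema3b-/- arthritis and 5409.8, 11182, 10805 and 1817 in Sema3b-/- control. The lowest and the 2 highest of these 9 libraries were all controls. Its log2 fold change was -0.32 (SE 0.47, 95% confidence interval -1.32 to 0.68, adjusted p = 0.697). In WT mice Ibsp was at 7072, 3135, 9369, 7664 and 3817 in arthritis and 6462, 5412, 5984 and 3948 in control, with arthritis on both sides of the controls. The WT log2 fold change was 0.09 (SE 0.47, 95% confidence interval -0.91 to 1.09, adjusted p = 0.935), a sign that turned negative when values were scaled to library totals (-0.13).

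Spp1 (osteopontin) was the only gene of the 10 with a positive estimate in Sema3b-/- mice. It was at 5152, 6139.8, 3398, 3799 and 5419 normalized counts in Sema3b-/- arthritis and 3318, 8799, 6752 and 1328 in Sema3b-/- control. The arthritis libraries lay inside the spread of the controls. Its log2 fold change of 0.21 (SE 0.42, 95% confidence interval -0.68 to 1.11, adjusted p = 0.778) turned negative with edgeR (-0.07) and without Sema3b-/- control replicate 4 (-0.32). In WT mice Spp1 was at 2948, 2565, 6495, 4707 and 4939.8 in arthritis and 2846, 2758, 2913 and 3092 in control. Arthritis replicates 3 to 5 lay above all controls. The WT log2 fold change was 0.50 (SE 0.42, 95% confidence interval -0.40 to 1.39, adjusted p = 0.52), and -0.29 with sex as a term.

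Counted by overlap, Bglap and Alpl were lower in every arthritis library than in every control of Sema3b-/- mice, 2 of 10 genes against 6.11% of all genes. In WT mice, Bglap, Bglap2, Alpl, Phex and Dmp1 were, 5 of 10 genes against 4.71% of all genes. The median log2 fold change of the 10 genes was -1.54 in Sema3b-/- mice and -0.85 in WT mice, beside -0.01 and -0.02 over all genes tested. Averaged over genotypes, the median was -1.18 beside -0.01, and muscle, epidermis and marrow B cell markers fell in the same comparison. Bglap fell there by 3.05 on the log2 scale (SE 0.46, adjusted p = 0.00032), Bglap2 by 2.37 (SE 0.49, adjusted p = 0.00249), Alpl by 1.53 (SE 0.28, adjusted p = 0.0012) and Phex by 1.44 (SE 0.35, adjusted p = 0.00907). The averaged Sp7 estimate was -1.15 (SE 0.36, adjusted p = 0.026), with an adjusted p of 0.0605 without the 3 libraries that stood apart and 0.0593 without Sema3b-/- control replicate 3, and the call was also lost without WT control replicate 4. The averaged Ibsp (-0.11, SE 0.33, 95% confidence interval -0.82 to 0.60) and Spp1 (0.35, SE 0.30, 95% confidence interval -0.28 to 0.99) did not pass. The authors' deposited table has 5 of the 10 genes called in Sema3b-/- mice, Bglap (-3.94), Bglap2 (-3.67), Phex (-2.33), Dmp1 (-2.13) and Alpl (-2.03) on the log2 scale. Sp7 has an adjusted p of 0.0505 in the authors' deposited table, and Dmp1 one of 0.0272. In WT mice the authors' deposited table gives an adjusted p for 8 of the 10 genes, not for Bglap2 and Sp7, and calls Bglap among the 8 (-2.28, adjusted p = 0.0446).

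Loss of Sema3b made no difference that passed the test for any of the 10 genes. In arthritic forepaws, Sema3b-/- minus WT, 0 of 10 genes were called, where 0.0217% of all genes were. In control forepaws 0 of 10 were called, where 0.0145% of all genes were, and for the difference between the arthritis effects 0 of 10, where 0.0% of all genes were. Limma gave 0 of the 10 genes at an unadjusted p under 0.05 in all 3 comparisons, and edgeR and DESeq2 each called 0 of the 10. The authors' deposited table also calls 0 of them between genotypes. Its estimate for Dmp1 in control forepaws is 1.23, with an unadjusted p of 0.0391. The arthritic estimates ran from -0.78 for Phex (95% confidence interval -1.78 to 0.22) to 0.19 for Spp1, and the intervals of the 10 genes together spanned -2.07 to 1.06 on the log2 scale. The control estimates ran from -0.23 for Mepe to 0.69 for Bglap and Sp7, with intervals spanning -1.24 to 2.15. In alternative fits they reached 1.21 for Bglap, 1.26 for Bglap2 and 1.26 for Dmp1. Differences of 2-fold in either direction therefore lie within the intervals of some genes.

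The group means nevertheless had much the same order for most genes. The Sema3b-/- control mean was the highest of the 4 for 9 of the 10 genes (all but Mepe), and the Sema3b-/- arthritis mean was the lowest for 9 (all but Spp1). No difference between genotypes within a treatment passed the test, so the order of such neighbours is within their spread. The estimated difference between the arthritis effects, Sema3b-/- minus WT, was negative for all 10 genes, from -1.27 for Phex (95% confidence interval -2.77 to 0.23, unadjusted p = 0.0905) to -0.28 for Spp1. These 10 estimates share libraries. Of all genes tested, 49.1% were negative in this comparison. So were 9 of 9 neutrophil, 8 of 8 muscle and 7 of 7 marrow B cell markers, against 2 of 9 macrophage, 1 of 7 epidermis and 3 of 8 osteoclast markers. With sex as a term, the estimates for Sp7, Spp1, Dmp1, Ibsp and Mepe turned positive, and with values scaled to library totals that for Spp1 did.

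The spread within groups was uneven, and the 4 Sema3b-/- controls carried most of it. Each gene's deviation from its group mean was divided by the SD of that gene's deviations and averaged over the 10 genes. Sema3b-/- control replicates 2 and 3, the males of that group, were at 1.23 and 1.12, above their group mean for 10 of 10 genes. Replicate 4, a female, was at -2.17, below it for all 10 genes, and replicate 1, also a female, at -0.17. The 4 WT controls lay within 0.08 of 0, and the lowest arthritis library was Sema3b-/- arthritis replicate 3 at -0.74.

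**Figure D3:**
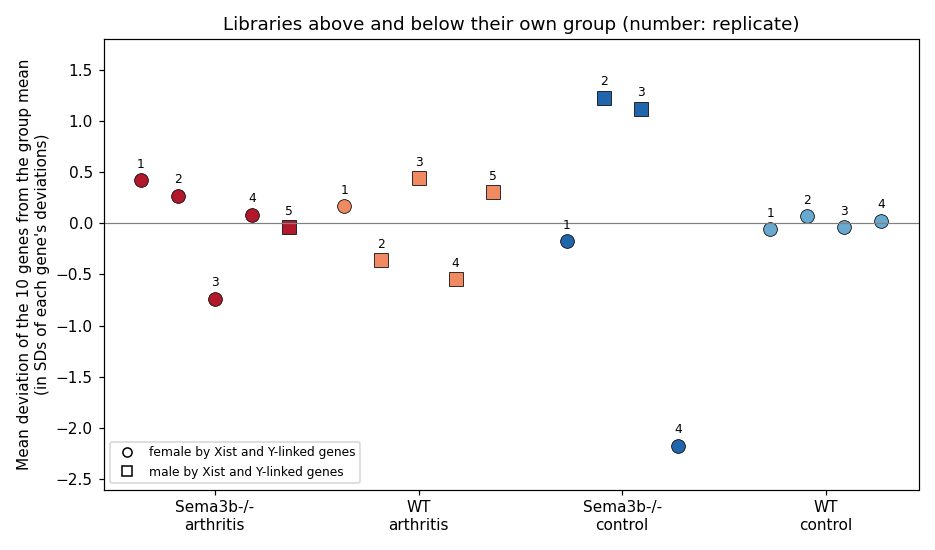
Mean deviation of the 10 genes from their group mean in each library, in SDs of each gene's deviations, for Sema3b-/- arthritis, WT arthritis, Sema3b-/- control and WT control; circles are female and squares male libraries, numbered by replicate. Sema3b-/- control replicates 2 and 3 stand at 1.23 and 1.12 and replicate 4 at -2.17, while the WT controls lie near 0.

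The other tissues of the paw moved with this split of the Sema3b-/- controls. Bone matrix genes took 2.57, 10.5, 11.1 and 1.06% of the normalized counts in replicates 1 to 4, osteoclast genes 0.124, 0.338, 0.293 and 0.0357%, and cartilage genes 0.178, 0.368, 0.292 and 0.0528%. Epidermis genes took 1.94, 0.968, 1.38 and 4.06%, highest in the replicate where the bone genes were lowest. Their part in the result was not tested. Without Sema3b-/- control replicate 4, 8 of 10 genes were called in Sema3b-/- mice and 3 in WT mice. Without Sema3b-/- control replicate 3, 3 of 10 were called in Sema3b-/- mice and 1 in WT mice. The shares of all genes given above belong to the main limma fit, so these counts have no such share beside them.

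Over the 18 libraries together, the deviations of the 10 genes from their group means went the same way. The Pearson correlation of deviations over the 18 libraries was positive in 45 of 45 pairs, from 0.128 (Ibsp with Mepe) to 0.950 (Bglap2 with Phex), with a median of 0.627. The points share each library's depth, scaling and tissue mix, and no test was made. Sema3b-/- control replicates 2, 3 and 4 had 10, 10 and 0 of 10 genes above their group mean, so the correlations weigh that group most. The WT controls had 2, 7, 5 and 6 of 10 genes above theirs, and correlations within each single group were not computed. Among 6882 genes with a mean of at least 100 normalized counts, those whose deviations were most like the mean of the 10 genes were Ptprd (r = 0.922), Arsb (0.922), Nrm (0.915), Dgkd (0.910), Mmp13 (0.904), Acp5 (0.897), Lect1 (0.875), Ptgis (0.867), Slc36a2 (0.863) and Sgms2 (0.858). Of these, Mmp13 encodes a collagenase of hypertrophic chondrocytes and osteoblasts, and Acp5 the tartrate-resistant acid phosphatase of osteoclasts.

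Ibsp offered a scale within each library, since it is a bone gene whose level did not pass the test; it was chosen after its values were seen, and the ratios are a description. Bglap was at 0.114 to 1.04 (median 0.283) per 100 of Ibsp in Sema3b-/- arthritis and 0.0666 to 0.614 (median 0.503) in WT arthritis. It was at 2.24 to 4.22 (median 2.78) per 100 of Ibsp in Sema3b-/- control and 1.60 to 3.33 (median 1.70) in WT control. On this scale Sema3b-/- control replicate 4, at 2.24, was the lowest Sema3b-/- control and above the WT control median, and arthritis and control did not overlap in either genotype. Alpl was at 3.45 to 5.11 per 100 of Ibsp in Sema3b-/- arthritis and 2.47 to 7.25 in WT arthritis, against 9.20 to 15.7 in Sema3b-/- control and 11.3 to 14.0 in WT control. Spp1 was at 82.2 to 119 per 100 of Ibsp in Sema3b-/- arthritis and 41.7 to 129 in WT arthritis, against 61.3 to 78.7 in Sema3b-/- control and 44.0 to 78.3 in WT control. Relative to Ibsp, Alpl, Bglap, Bglap2, Phex and Sp7 were lower in every Sema3b-/- arthritis library than in every Sema3b-/- control, 5 of 9 genes, against 0.304% of all other genes tested on this scale. Spp1 was higher there without overlap, as were 2.03% of all genes. In WT mice Alpl, Bglap and Bglap2 were lower without overlap, 3 of 9 genes, against 0.514% of all genes. The deviations of Ibsp correlated with those of the other 9 genes (r = 0.128 for Mepe to 0.8545 for Spp1). Dividing by Ibsp can therefore narrow their spread while adding its own spread to other genes. The choice of scale thus shapes both the counts and the shares over all genes, and their contrast is no test.

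**Figure D4:**
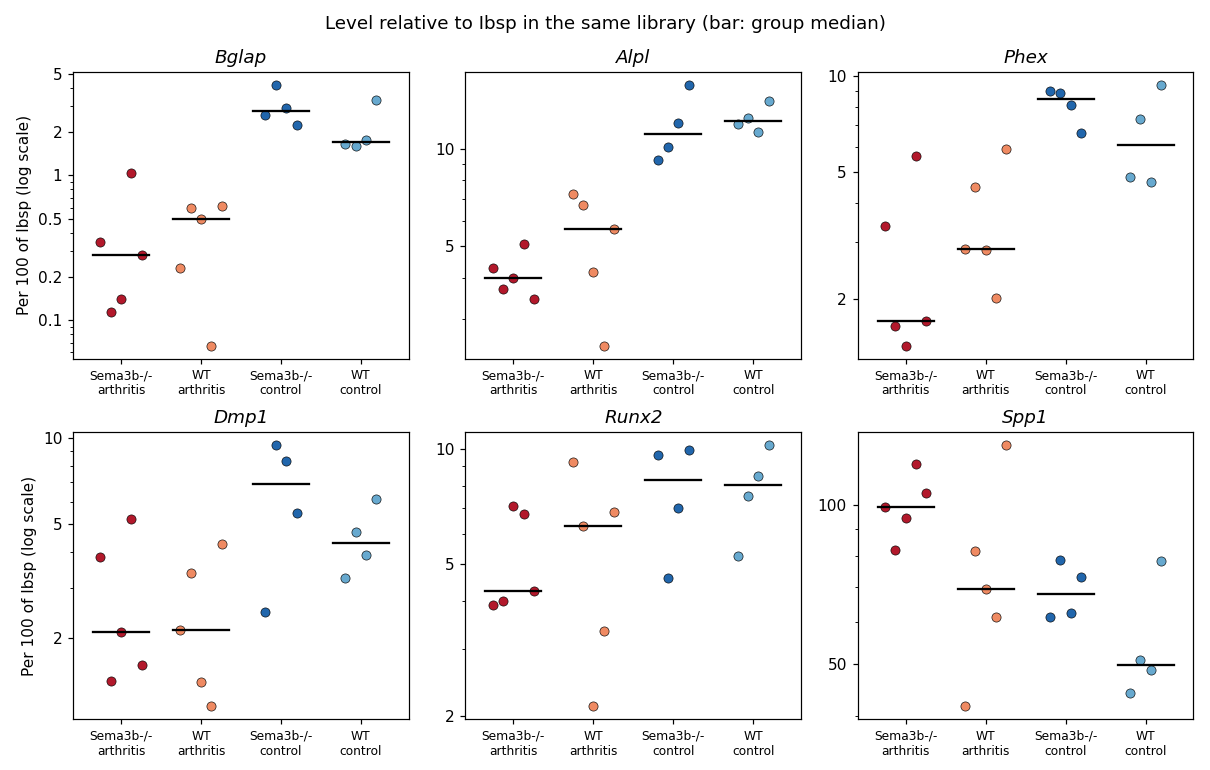
Normalized counts of Bglap, Alpl, Phex, Dmp1, Runx2 and Spp1 per 100 normalized counts of Ibsp in the same library (log scale), by group; each point is a library and each bar a group median. Bglap reaches at most 1.04 in arthritis of either genotype and at least 1.60 in control, and Spp1 in Sema3b-/- arthritis (82.2 to 119) lies above Sema3b-/- control (61.3 to 78.7).

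Other genes of the lineage, in 5 lists by role, had medians below 0 in Sema3b-/- mice. Of osteoblast transcription factors outside the 10 genes, 2 of 9 tested fell, among them the homeobox factor Dlx5 (log2 fold change -1.30, adjusted p = 0.0449), and the median was -1.05. Dlx5 was at 31.1 to 61.3 normalized counts in Sema3b-/- arthritis against 56.6 to 152 in Sema3b-/- control. Of mineralization genes, 4 of 9 fell, the sphingomyelinase gene Smpd3 (-1.47, adjusted p = 0.00757), the secreted-protein kinase gene Fam20c (-1.20, adjusted p = 0.0102), the phosphate transporter gene Slc20a2 (-0.88, adjusted p = 0.0279) and the pyrophosphate exporter gene Ank (-0.69, adjusted p = 0.0413), with a median of -0.77. Ank raises extracellular pyrophosphate, which restrains mineral growth.

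Beside the 5.55% of all genes that were called lower, 1 of 10 bone matrix and collagen assembly genes fell, Kazald1 (-1.24, adjusted p = 0.0327), with a median of -0.89. Of osteocyte genes outside the 10, 1 of 7 fell, Irx5 (-1.15, adjusted p = 0.0485), and 2 rose, Pdpn (2.56, adjusted p = 0.00192) and Cd44 (0.67, adjusted p = 0.031), both membrane glycoproteins that other cell types also make, and the list median was -0.50. Pdpn, which encodes podoplanin and is also made by synovial fibroblasts and lymphatic endothelium, was at 696 to 1558 normalized counts in Sema3b-/- arthritis against 121 to 216 in Sema3b-/- control. Of the BMP, PTH, vitamin D and Wnt inputs, 2 of 15 fell, the Wnt-responsive factors Tcf7 (-2.07, adjusted p = 0.0183) and Lef1 (-2.25, adjusted p = 0.0273), and 1 rose, the BMP receptor gene Bmpr1b (1.32, adjusted p = 0.0381), with a median of -0.35. Tcf7 and Lef1 are also active in T cells and skin. The calls of Bmpr1b were lost in 6, of Dlx5 and Irx5 in 5, and of Kazald1 and Ank in 4 of 11 alternative fits.

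In WT mice limma called 0 genes of these 5 lists, with 3, 0, 6, 3 and 4 at an unadjusted p under 0.05 among transcription factors, matrix, mineralization, osteocyte and input genes. EdgeR called Mgp and Pdpn higher there, and DESeq2 called Dlx3, Dlx5, Smpd3 and Lrp5 lower and Enpp1, Mgp and Pdpn higher. The WT list medians, in that order, were -0.51, -0.09, -0.24, -0.21 and -0.23 on the log2 scale. Averaged over genotypes, 3 of 9 transcription factors (Dlx5 and Dlx3 among them), 2 of 10 matrix genes, 4 of 9 mineralization genes, 2 of 7 osteocyte genes and 4 of 15 inputs fell, and 2 mineralization and 2 osteocyte genes rose. Of all genes tested, 10.9% were called lower in this comparison and 1737 of 13809 higher. A count of 2 in lists this short is near these shares. There, Sost, the Wnt inhibitor secreted by osteocytes, fell by 1.51 on the log2 scale, and Col1a1, the main collagen gene of bone, by 1.54. Axin2, a target of Wnt signalling, fell by 1.18 on the log2 scale and the Wnt co-receptor gene Lrp5 by 0.84, while Enpp1, which makes pyrophosphate, rose by 1.07 and the calcification inhibitor Mgp by 0.57. The limma calls of Sost and Axin2 were lost with a replicate block (adjusted p = 0.0531 and 0.0568) and without the 3 libraries that stood apart (0.0978 and 0.0549). That of Axin2 was also lost with sex as a term (0.0564). Those of Col1a1 and Lrp5 were kept in each of these fits.

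Markers of other cell types in the paw also moved with arthritis, and their part in the results was not tested. In Sema3b-/- mice, 3 of 9 cartilage markers fell (Chad by 2.59, Col2a1 by 3.05 and Col9a1 by 2.46 on the log2 scale), 2 of 5 hypertrophic chondrocyte markers (Col10a1 by 3.95, Ihh by 2.82) and 3 of 7 marrow B cell markers (among them Cd79a by 2.18 and Vpreb1 by 1.56). Of 9 macrophage markers 5 rose there, among them Trem2 (1.98) and Lyz2 (1.77), as did 1 of 9 neutrophil markers, Cxcr2 (1.28), and 2 of 8 synovial fibroblast markers, Pdpn (2.56) and Has1 (1.26). In WT mice 2 of 9 macrophage markers, Lyz2 (1.72) and Mrc1 (0.66), and 1 of 9 neutrophil markers, Cxcr2 (1.57), rose. These calls were lost for Lyz2 in 1, for Mrc1 in 6 and for Cxcr2 in 5 of 11 alternative fits. In Sema3b-/- mice the calls of Col9a1, Vpreb1 and Has1 were each lost in 7 of 11 such fits, that of Col2a1 in 6 and that of Cxcr2 in 4. Averaged over genotypes, markers of other tissues fell as well, 6 of 7 marrow B cell (median -1.36), 3 of 8 muscle (median -1.38), 3 of 7 epidermis (median -1.62) and 3 of 9 cartilage markers (median -0.80). There 7 of 9 macrophage (median 0.93) and 4 of 9 neutrophil markers (median 1.01) rose. Beside these counts, 10.9% of all genes were called lower and 1737 of 13809 higher. The epidermis calls, Krt1, Krt10 and Lor, were each lost with sex as a term, with a replicate block and without the 3 libraries that stood apart. The muscle calls, Acta1, Myh4 and Mylpf, were lost with a replicate block, and the neutrophil calls S100a8, S100a9 and Csf3r with sex as a term. In Sema3b-/- mice 5.55% of all genes were called lower and 944 of 13809 higher, and in WT mice 1.58% lower and 364 of 13809 higher. Of 8 osteoclast markers limma called 0 in either genotype, with 1 in Sema3b-/- and 0 in WT mice at an unadjusted p under 0.05. EdgeR called 0 of them, and DESeq2 called Itgb3 in Sema3b-/- mice.

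As shares of each library's normalized counts, cartilage markers took 0.0369 to 0.0668% in Sema3b-/- arthritis and 0.0595 to 0.135% in WT arthritis, against 0.0528 to 0.368% in Sema3b-/- control and 0.132 to 0.179% in WT control. Osteoclast markers took 0.0789 to 0.211% in Sema3b-/- arthritis and 0.0600 to 0.160% in WT arthritis, against 0.0357 to 0.338% in Sema3b-/- control and 0.114 to 0.131% in WT control. Muscle markers took 0.108 to 0.856% in Sema3b-/- arthritis and 0.0942 to 1.49% in WT arthritis, against 0.951 to 1.96% in Sema3b-/- control and 1.02 to 1.30% in WT control. Epidermis markers took 0.0532 to 1.39% in Sema3b-/- arthritis and 0.0465 to 1.48% in WT arthritis, against 0.968 to 4.06% in Sema3b-/- control and 1.15 to 1.74% in WT control. In Sema3b-/- mice the muscle shares of all arthritis libraries lay below those of all controls, and their cartilage shares below 3 of 4 controls, while osteoclast shares overlapped in both genotypes. Macrophage markers, whose cells also make Spp1, took 0.127 to 0.159% in Sema3b-/- arthritis and 0.0682 to 0.136% in WT arthritis, against 0.0834 to 0.181% in Sema3b-/- control and 0.0859 to 0.137% in WT control. Each of the 10 osteoblast and osteocyte genes had at least 1 read in every library, while Dlx6, Phospho1 and the globin gene Hba-a1 stayed under 10 normalized counts in all 18 libraries.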

How the data were processed

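Total RNA from mouse forepaws was barcoded during reverse transcription (CEL-seq), pooled, amplified as RNA and read with paired ends, per the labels' protocols. BWA, DESeq2 1.32 and mm10 are named in the submitters' processing notes; the sources used here do not name the counting tool or say whether duplicates were removed. The table deposited by the authors holds a signal per library, the read count over that library's size factor (normalized count), and for each comparison a log2 fold change, a p-value, an adjusted p-value and a test score by the authors. Whole reads were recovered from the deposited signal within 0.02 of a read for 100% of values.

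Limma-trend (limma 3.58.1 in R 4.3.3) with robust empirical Bayes was fitted to log2(normalized count + 1) in all 18 libraries, with 1 mean per group. The design named edgeR for a file of raw counts and limma for one of normalized counts, so limma gave the values reported. Genes with at least 10 normalized counts in at least 4 libraries were tested. P-values were adjusted by Benjamini-Hochberg over all genes tested, and a call is an adjusted p under 0.05. Fold changes on this scale understate the change of low genes such as Bglap2 and Sp7. Alternatives were edgeR 4.0.16 and DESeq2 1.42.0 on recovered reads, other pseudocounts, filters and scalings, a replicate block, sex as a term, subsets of libraries and leaving out each library in turn; leaving out the 3 libraries that stood apart was chosen after seeing the data. The fit was also run on simulated counts with the same spread setting in every gene and group. The real groups differed in spread, so that run cannot show how the fit performs on them.

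The 10 genes and all lists were chosen with earlier results of these data known. All 10 are named; of every other list, up to 4 called members per comparison with the lowest adjusted p are named, and the genes most like the 10 by correlation; a few genes that this rule picks are not reported here. Where sources give no separate animals for the libraries, p-values measure only the spread between these libraries. The 32 pairs of libraries within groups differed by more than sampling noise, so none was counted as a duplicate. The titles of Sema3b-/- control replicates 3 and 4 share the inner name KO3, while their outer names differ. By Xist and the Y-linked genes, replicate 3 read as male (Xist 14.2, Ddx3y 568 normalized counts). Replicate 4 read as female (Xist 194, Ddx3y 18.0), so these libraries did not come from the same animal. The sheet's column for Sema3b-/- arthritis replicate 5 ends in Ct, while its title and treatment label say arthritis; it was taken as arthritis. Coordinates are 1-based on mm10 (GENCODE M21), and Emr1 is the table's symbol for Adgre1.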

Additional observations from a re-analysis of the deposited data

Results flagged for a closer look

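Runx2 in WT arthritis replicate 1 stood at 655 normalized counts, with the other 4 WT arthritis libraries between 198 and 261. Its gap to the nearest of them was 0.861 of the range of the group, beyond the 95% critical value of Dixon's test for 5 samples. It was the 1 value so marked among 40 groups of values (10 genes in 4 groups), where chance marks about 1 in 20. The same library had the highest mitochondrial share of the series, 39.4%, and its part in the Runx2 value was not tested. Without it, the Runx2 estimate for Sema3b-/- minus WT in arthritic forepaws was 0.06 on the log2 scale, against -0.24 with it.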

How the results depend on the processing

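The count of the 10 genes called with arthritis averaged over genotypes lay between 5 and 8 under every alternative run, and no alternative called any of the 10 between genotypes or for the difference between the arthritis effects. In Sema3b-/- mice the count of 5 became 8 with DESeq2, 2 in a fit of the 2 groups compared alone and 3 with the arthritis libraries titled Joint alone, and ranged from 3 (without Sema3b-/- control replicate 3) to 8 (without Sema3b-/- control replicate 4) when each library was left out. In WT mice the count of 1 became 3 with DESeq2, 2 with values scaled to library totals, 0 with sex as a term, 3 in a fit of the 2 groups compared alone and 0 with the Joint libraries alone, and ranged from 0 to 3 when each library was left out; it was 0 without any single WT control, WT arthritis replicate 4 or 5, or Sema3b-/- arthritis replicate 1 or 5. The Bglap call in WT mice was lost in 9 of the 18 such fits (adjusted p 0.0164 to 0.111), and Phex in Sema3b-/- mice without Sema3b-/- control replicate 3 (0.0523). Phex (0.0918) and Bglap2 (0.0605) in Sema3b-/- mice were also lost in the fit of the 2 groups compared alone, and Phex with the Joint libraries alone (0.0544). The cause was not tested. The shares of all genes called, given with the results, belong to the main limma fit. Counts under the alternatives and in the authors' deposited table have no such share beside them.

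Replicate numbers did not pair the libraries: same-numbered libraries of different groups correlated at -0.658 to 0.414 (25 pairs, median 0.017), and 3 of 18 were closest to their own number. With the number as a replicate block, 5 genes were called in Sema3b-/- mice, 0 in WT mice and 6 averaged over genotypes. The averaged effect and the difference between effects use all 4 groups, so the fit of the groups compared alone gave no value for them.

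Signs turned only for estimates that had not passed the test. For arthritis effects, Spp1 in Sema3b-/- mice turned to -0.070 with edgeR and -0.080 with DESeq2 (-0.32 to 0.59 with each library left out), and Spp1 in WT mice to -0.29 with sex as a term. Ibsp in WT mice turned to -0.13 with library totals, -0.41 with sex as a term and -0.25 without the 3 libraries that stood apart (-0.087 to 0.31 with each library left out), and its averaged effect ranged from -0.40 to 0.041. For Sema3b-/- minus WT in arthritis, sex as a term gave 0.19 for Bglap, 0.44 for Dmp1, 0.10 for Ibsp and 0.56 for Sp7. Library totals gave 0.10 for Dmp1 and 0.037 for Sp7, the Joint libraries 0.19 for Sp7, and the fit without the 3 libraries 0.021 for Dmp1 and 0.062 for Ibsp. With each library left out, Sp7 ranged from -0.37 to 0.13, Runx2 from -0.37 to 0.061 and Dmp1 from -0.28 to 0.064. For Sema3b-/- minus WT in control, sex as a term gave -0.11 for Alpl, -0.18 for Ibsp and -0.021 for Spp1, and library totals -0.10 for Alpl and -0.036 for Runx2. With each library left out, Alpl ranged from -0.28 to 0.44, Ibsp from -0.18 to 0.69, Runx2 from -0.17 to 0.51, Dmp1 from -0.026 to 1.11 and Mepe from -0.50 to 0.24. For the difference between arthritis effects, sex as a term gave 0.46 for Sp7, 0.80 for Spp1, 0.36 for Dmp1, 0.28 for Ibsp and 0.25 for Mepe, and library totals 0.038 for Spp1. With each library left out, Mepe ranged from -0.80 to 6.45e-05 and Spp1 from -0.81 to 0.10. Scaling to library totals moved the median of all genes to -0.24 in WT mice, 0.08 in Sema3b-/- mice, 0.19 and -0.13 between genotypes in arthritis and control, and 0.32 for the difference between effects. Relative to that median, Bglap in WT mice, at -2.71 under this scaling, stayed lower.

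Depth limits the low genes most: Bglap2 rested on 1 to 9 reads per library in Sema3b-/- arthritis and 5 to 23 in WT arthritis. These limits cover counting error only.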
